A study of Homo sapiens with 4 samples.

Results

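The ADP-ribosyltransferases of the PARP family and the ubiquitin ligase DTX3L were followed in Caco-2 cells, a human colorectal carcinoma line used as a model of the intestinal epithelium. The 10 genes PARP1, PARP2, PARP3, PARP4, PARP8, PARP9, PARP10, PARP12, PARP14 and DTX3L were chosen by name, and all 10 were found by Ensembl identifier among the 37515 genes with a row of read counts. The cells were grown in transwells for 15 days, and IFNγ was then given at 60 ng/ml on the basal side. RNA from the whole well was sequenced in 2 libraries after 3 h of IFNγ and in 2 libraries of unstimulated cells at 0 h, all 4 of which the labels mark as WT. The effect of IFNγ and that of 3 h in culture cannot be told apart in this comparison, and the same 2 unstimulated libraries are the control of every result. All 4 libraries come from 1 cell line, and no source used here says that replicates came from separate cultures, so p-values measure only the spread between these libraries, which may be technical. Because whole wells were measured, fewer cells of a state and less RNA per cell cannot be told apart.

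Enzymes of the PARP family take ADP-ribose from NAD+ and attach it to proteins or nucleic acids. PARP1 and PARP2 build poly(ADP-ribose) chains at DNA strand breaks, and these chains recruit repair factors such as XRCC1. PARP3 also acts at strand breaks and attaches single ADP-ribose units. PARP9, PARP10, PARP12 and PARP14 belong to the interferon-linked branch, whose genes are known to respond to interferons and whose products take part in antiviral and signalling responses. PARP9 carries macrodomains that bind ADP-ribose and works as a heterodimer with DTX3L, which was grouped with this branch. PARP4 is part of the vault particle, and PARP8 is one of the less studied members.

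The stretch of DNA around the start of transcription is shown first for 7 members, because interferon-responsive promoters often carry letters bound by IRF and STAT factors. The sequences are RefSeq promoter windows of GRCh38.p14. Windows were examined for 8 of the 10 members, all but PARP4 and PARP10. Each line runs 5′ to 3′ on the strand of the gene, from 50 bases before the start site to 10 bases from the start site onward. Capitals mark GAAA, any 2 bases and GAAA again, a motif of the IRF type searched on both strands, which starts with TTTC when it lies on the other strand.
PARP9, chr3:122564291-122564350, minus strand: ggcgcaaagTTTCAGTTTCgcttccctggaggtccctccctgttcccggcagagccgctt
DTX3L, chr3:122564288-122564347, plus strand: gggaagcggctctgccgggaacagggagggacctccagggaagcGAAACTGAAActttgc
PARP14, chr3:122680789-122680848, plus strand: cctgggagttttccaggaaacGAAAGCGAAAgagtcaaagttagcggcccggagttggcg
PARP12, chr7:140062942-140063001, minus strand: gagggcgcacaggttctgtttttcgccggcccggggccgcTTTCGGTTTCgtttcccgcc
PARP1, chr1:226408084-226408143, minus strand: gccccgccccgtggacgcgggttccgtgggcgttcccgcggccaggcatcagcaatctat
PARP2, chr14:20343585-20343644, plus strand: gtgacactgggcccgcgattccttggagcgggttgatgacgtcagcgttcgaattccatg
PARP3, chr3:51942313-51942372, plus strand: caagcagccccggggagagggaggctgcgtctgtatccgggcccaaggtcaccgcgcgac

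The motif lay in the windows of 4 of the 8 examined members, PARP9, DTX3L, PARP14 and PARP12. The matches lay at -41 to -32, -6 to 4, -29 to -20 and -10 to -1 from the start sites of these genes. PARP10, the remaining interferon-linked member, was not examined, so whether its promoter holds the motif was not tested. Over all genes with a window, those of chromosome 8 included, 1195 of 27305 (4.38%) held it, and 3.57% of the 35116 windows did. The PARP9 and DTX3L lines hold the same 10 bases, since the start sites of the pair lie 38 bases apart on opposite strands, and the match spans that of DTX3L. PARP9 has another RefSeq start site, at chr3:122564784 on the minus strand, whose window held no match. No letters of this kind were found in the windows of PARP1, PARP2, PARP3 and PARP8. TTCNNNGAA, a motif of the STAT type that reads the same on both strands, lay in the windows of PARP14 (-40 to -32) and PARP2 (-154 to -146), and in those of 2560 of the 27305 genes (9.38%). The motifs share no bases in the PARP14 window. These matches describe letters and are not evidence of binding.

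The libraries held 9990952 and 7171455 counts in the unstimulated cells and 10365346 and 7529914 counts after IFNγ, so replicate 1 was the deeper in both conditions. Levels are given as normalized CPM, counts scaled to library size by the TMM method, and changes as log2 fold changes from edgeR's quasi-likelihood test over the 14820 genes that passed its filter on low counts. A gene was called when its Benjamini-Hochberg adjusted p-value was under 0.05 and its log2 fold change was above 1 or under -1. By this rule 427 genes (2.88%) were higher after IFNγ and 652 (4.40%) lower. A loess correction of every library for GC content and transcript length gave a split of 413 and 275. Larger log2 fold changes went with higher GC content across the 14518 genes with an annotated sequence (Spearman rho = 0.436), as a description across genes that are not independent. As a check of the labels, 12 of 12 known IFNγ targets had a positive log2 fold change and 9 were called, with IRF1 at 5.86. All 10 enterocyte and Caco-2 markers passed the filter, with a summed level of 5663 to 6127 CPM in unstimulated and 7012 to 7565 CPM in IFNγ libraries. By edgeR CDX2 was called higher (1.20, adjusted p = 0.00117) and SI lower (-1.13, adjusted p = 0.0256), and 4 of the 10 were higher and 1 lower by the adjusted p-value alone. DESeq2 called 1 higher and 0 lower. The part of these markers in the members' changes was not tested. Of 7 leukocyte markers 3 were tested and 0 were called by edgeR or DESeq2 (1, CD14, at an unadjusted p under 0.05). Their summed level was 8.37 to 10.1 CPM in unstimulated and 11.1 to 13.5 CPM in IFNγ libraries. CD14 had 36 and 34 counts in unstimulated and 59 and 65 in IFNγ libraries (log2 fold change 0.82). ITGAM was at -0.04 and LYZ at -0.24, and the defining marker PTPRC had at most 2 counts in any library. Of 6 fibroblast and endothelial markers 3 were tested and 0 were called by either tool (0 at an unadjusted p under 0.05). The list summed to 94.8 to 186 CPM in unstimulated and 130 to 175 CPM in IFNγ libraries. COL1A1 made up most of this, with 638 to 1842 counts in a library. PDGFRB had 30 to 68 counts and VWF 8 to 18, while DCN and COL1A2 had at most 1 count.

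Of the 10 members, 9 passed the filter on low counts, and after IFNγ 2 were called higher, PARP9 and DTX3L, beside 2.88% of all tested genes. One member, PARP2, was called lower, beside 4.40%, and its log2 fold change of -1.002 stood at the fold change threshold. With the adjusted p-value alone 3 members passed in the higher direction, PARP12 with the called pair, beside 9.02% of all tested genes, and 1 in the lower direction, beside 11.0%. The median log2 fold change was 0.32 over the 9 tested members and -0.01 over all tested genes. Both IFNγ libraries lay above both unstimulated libraries for 5 members, beside 31.6% of tested genes, and below them for 2 members, beside 30.8%. The interferon-linked members had 5 of 5 positive log2 fold changes, beside 7326 of all 14820 tested genes, with a median of 0.58. The 3 DNA repair members had a median of -0.06. Under the alternatives PARP14 turned to -0.033 (without IFNγ replicate 1) and PARP10 to -0.10 (GC and length trend removed), and PARP1 of the repair members also changed sign.

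**Figure D1:**
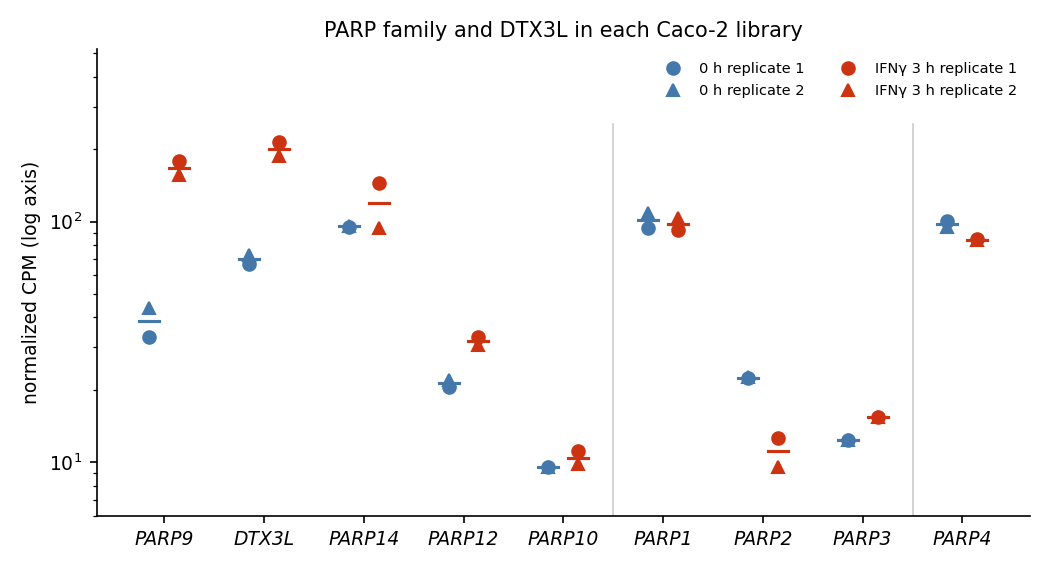
Normalized CPM on a log axis for the 9 tested members in each of the 4 libraries, blue for 0 h and red for IFNγ 3 h, circles for replicate 1 and triangles for replicate 2, with a bar at the mean of each pair. Grey lines separate interferon-linked, DNA repair and other members; the red points of PARP9 (157 and 178 CPM) and DTX3L (188 and 214 CPM) stand clear of the blue ones, and those of PARP2 (9.55 and 12.6 CPM) lie below them.

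PARP9 (ENSG00000138496, chr3:122246771-122283424 of GRCh37, minus strand) showed the largest change of the members. Its counts were 341 and 312 in unstimulated libraries and 1832 and 1149 after IFNγ, which are 33.2 and 43.7 normalized CPM against 178 and 157 CPM. Both IFNγ libraries were several times above both unstimulated ones, and the groups did not overlap. The mean went from 38.5 ± 7.43 CPM (SD, n = 2) to 167 ± 15.1 CPM (SD, n = 2), a 4.38-fold rise with a log2 fold change of 2.13 (SE 0.163, 95% confidence interval 1.75 to 2.51, edgeR quasi-likelihood adjusted p = 0.000681). The same-numbered libraries differed by 2.42 in replicate 1 and 1.84 in replicate 2 on the log2 scale.

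DTX3L (ENSG00000163840, chr3:122283185-122294050, plus strand), the ubiquitin ligase that pairs with PARP9, was counted 687 and 516 times in unstimulated libraries and 2200 and 1377 after IFNγ. These were 66.9 and 72.3 normalized CPM against 214 and 188 CPM, again without overlap. The mean went from 69.6 ± 3.82 CPM (SD, n = 2) to 201 ± 18.5 CPM (SD, n = 2), a 2.89-fold rise with a log2 fold change of 1.53 (SE 0.125, 95% interval 1.24 to 1.82, edgeR quasi-likelihood adjusted p = 0.000894). In GENCODE 44 on GRCh37 the exons of PARP9 and DTX3L overlap and the genes share 240 bases. Whether the counting used strand is not given in the sources used here, so reads from the shared bases cannot be assigned to one of the pair with certainty.

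PARP14 (ENSG00000173193, chr3:122399686-122449687, plus strand), a macrodomain protein known for its part in IL-4 signalling through STAT6, was at 94.8 and 96.1 normalized CPM in unstimulated cells and at 145 and 93.9 CPM after IFNγ. One IFNγ library was above and the other just below the unstimulated pair, so the groups overlapped. Its counts were 974, 686, 1489 and 688 in the same order, and its log2 fold change of 0.33 (SE 0.196, 95% interval -0.13 to 0.79, edgeR quasi-likelihood adjusted p = 0.281) did not pass. The value was decided by 1 library. Without IFNγ replicate 1 it was -0.033 (adjusted p = 0.906), and without IFNγ replicate 2 it was 0.58 (adjusted p = 0.00799), in fits where the lone IFNγ library is assumed to vary like the unstimulated group. With the GC and length trend removed from all 4 libraries it was 0.65 (edgeR adjusted p = 0.0371), past the adjusted p-value alone. PARP14 shares the motif near its start site with PARP9 and DTX3L but was not called with them.

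PARP12 (ENSG00000059378, chr7:139723549-139762751, minus strand), a zinc finger member with known antiviral activity, was at 20.6 and 22.0 normalized CPM in unstimulated cells and at 33.2 and 30.6 CPM after IFNγ. Both IFNγ libraries were above both unstimulated ones. The log2 fold change of 0.58 (SE 0.146, 95% interval 0.24 to 0.93, edgeR quasi-likelihood adjusted p = 0.0312) passed the adjusted p-value but not the fold change threshold. DESeq2 gave an adjusted p of 0.0724, edgeR gave 0.0717 once the GC and length trend was removed, and when single libraries were left out edgeR's adjusted p ran from 0.0253 to 0.149.

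PARP10 (ENSG00000178685, chr8:145051321-145086940, minus strand), which attaches single ADP-ribose units, was low, at 9.54 and 9.53 normalized CPM in unstimulated and 11.1 and 9.82 CPM in IFNγ libraries. The IFNγ values were both the higher, by little. Its log2 fold change was 0.14 (SE 0.197, 95% interval -0.33 to 0.60, edgeR quasi-likelihood adjusted p = 0.663), and it was -0.10 with the GC and length trend removed. Its transcript has a GC content of 66.8%, the highest of the members, whose other tested genes ran from 42.7% (PARP9) to 56.6% (PARP3). Its exons overlap GRINA and SPATC1 on the opposite strand. GRINA was at 296 ± 10.7 CPM (SD, n = 2) in unstimulated and 402 ± 1.81 CPM (SD, n = 2) in IFNγ libraries, far above PARP10 itself, and a share of GRINA reads in the PARP10 count was not tested.

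Among the DNA repair members, PARP1 (ENSG00000143799, chr1:226547911-226595855, minus strand), the main source of poly(ADP-ribose) after DNA damage, had 970 and 776 counts in unstimulated and 946 and 757 in IFNγ libraries. These were 94.4 and 109 normalized CPM against 92.0 and 103 CPM, and the groups overlapped. The log2 fold change was -0.06 (SE 0.130, edgeR quasi-likelihood adjusted p = 0.790), and its 95% interval of -0.36 to 0.25 lies within the fold change threshold on both sides. The sign of so small a value was not stable, since it ran from -0.16 to 0.06 when single libraries were left out.

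PARP2 (ENSG00000129484, chr14:20811774-20826063, plus strand), the closest relative of PARP1 in strand break repair, had 229 and 161 counts in unstimulated and 130 and 70 counts in IFNγ libraries. In normalized CPM these were 22.3 and 22.6 against 12.6 and 9.55. Both IFNγ libraries lay well below the unstimulated pair. The mean went from 22.4 ± 0.183 CPM (SD, n = 2) to 11.1 ± 2.19 CPM (SD, n = 2), a 2.00-fold fall with a log2 fold change of -1.002 (SE 0.189, 95% interval -1.44 to -0.56, edgeR quasi-likelihood adjusted p = 0.0113). Its adjusted p-value stayed under 0.05 in every alternative that was run, but its log2 fold change missed the threshold in 5 of them: -0.96 with upper quartile scaling, -0.98 with no filter on low counts, -0.94 with the GC and length trend removed, -0.98 without unstimulated replicate 2 and -0.85 without IFNγ replicate 2. A pair of unnamed genes on the opposite strand overlap its exons, and they had at most 3 counts in any library.

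PARP3 (ENSG00000041880, chr3:51976361-51982883, plus strand) was at 12.4 and 12.3 normalized CPM in unstimulated and at 15.5 and 15.4 CPM in IFNγ libraries. The libraries of each group were nearly equal and the groups did not overlap. With 88 to 159 counts in a library, its log2 fold change of 0.32 (SE 0.169, 95% interval -0.07 to 0.72) did not pass edgeR's quasi-likelihood test (adjusted p = 0.219).

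PARP4 (ENSG00000102699, chr13:24995069-25086916, minus strand), the vault member, was at 100.5 and 95 normalized CPM in unstimulated and at 84.6 and 83.5 CPM in IFNγ libraries. The IFNγ values were the lower in both, and the log2 fold change was -0.22 (SE 0.114, 95% interval -0.48 to 0.05, edgeR quasi-likelihood adjusted p = 0.217). PARP8 (ENSG00000151883, chr5:49961733-50142353, plus strand) had 1 and 3 counts in unstimulated and 0 and 1 in IFNγ libraries and was not tested. A change of PARP8 was not detectable at this depth.

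**Figure D2:**
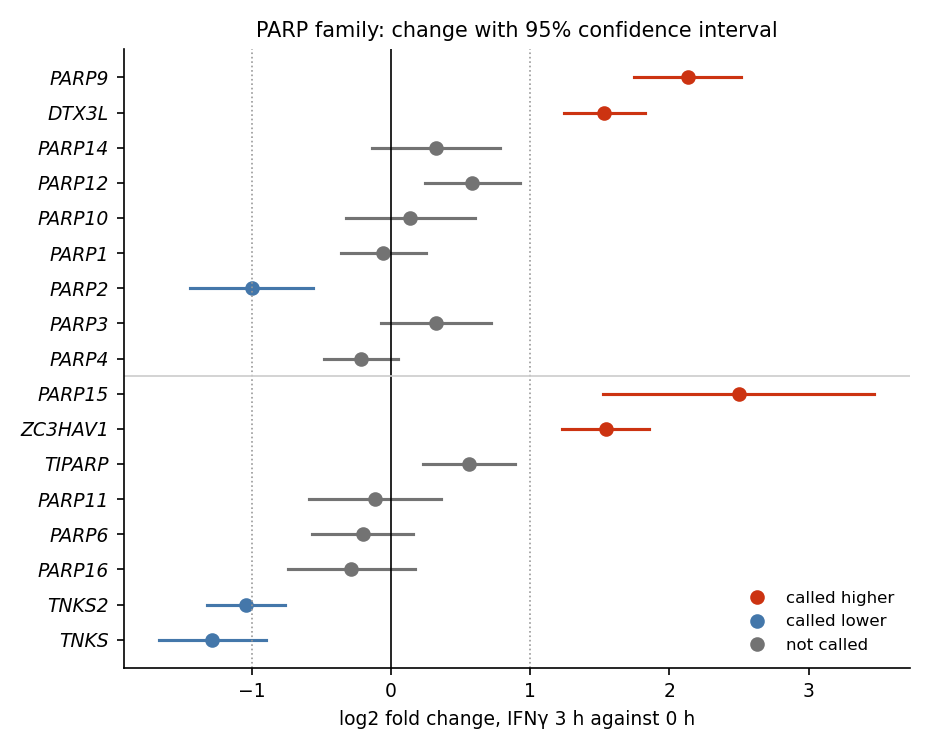
Log2 fold change of IFNγ 3 h against 0 h with its 95% confidence interval from edgeR, for the 9 tested members above the grey line and the 8 other PARP family genes below it, red for called higher, blue for called lower and grey for not called. Dotted lines mark the fold change threshold; PARP9 (2.13) and DTX3L (1.53) lie wholly above it among the members, while the interval of PARP2 (-1.44 to -0.56) spans it.

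Levels of different genes were compared per length, as normalized CPM per kb of the annotated transcript, with no test. In unstimulated cells PARP1 was the highest member at 23.7 and 27.3 CPM per kb, and PARP4 followed at 18.5 and 17.5. PARP9, DTX3L, PARP14 and PARP2 lay close together behind them, at means of 12.6 ± 2.44, 12.1 ± 0.662, 12.4 ± 0.117 and 12.3 ± 0.1 CPM per kb (SD, n = 2 each), and their order differed between the 2 libraries. After IFNγ PARP9 ranked first in both libraries, at 58.5 and 51.5 CPM per kb, and DTX3L ranked second, at 37.1 and 32.6. PARP1, then at 23.1 and 26.0 CPM per kb, ranked next. PARP2, at 6.92 and 5.23 CPM per kb, was close to PARP3, at 6.62 and 6.60, and their order differed between libraries. PARP10 stayed below 4 CPM per kb in all libraries and PARP8 was the lowest throughout. PARP9 and DTX3L together made up 21.6% and 24.0% of the summed per-length level of the 10 members in unstimulated cells, and 52.9% and 51.8% after IFNγ, while that sum went from 104 and 112 to 181 and 162 CPM per kb.

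**Figure D3:**
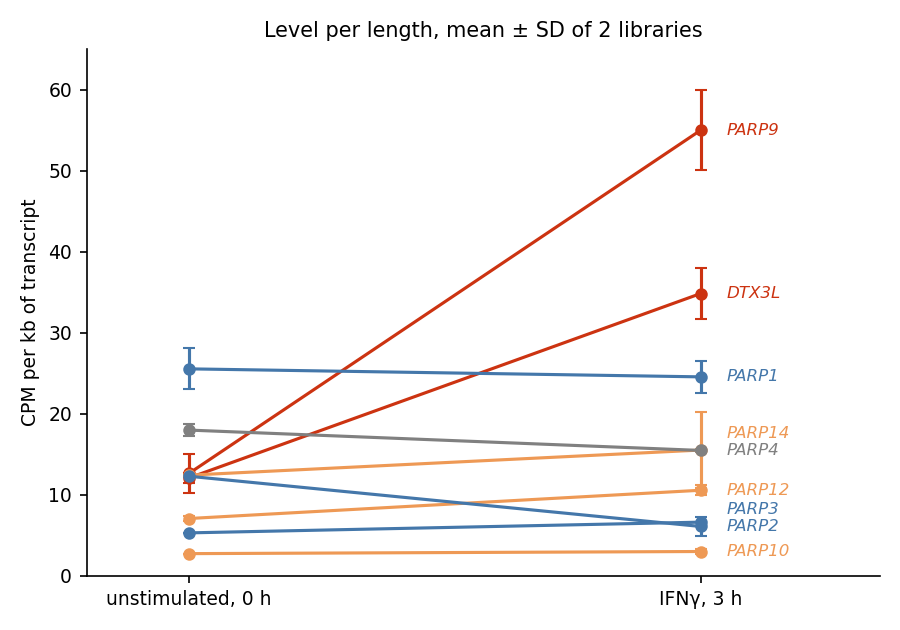
Mean normalized CPM per kb of transcript at 0 h and after 3 h of IFNγ, with bars for the SD of 2 libraries, for the 9 tested members. PARP1 leads at 0 h (25.5 CPM per kb) and is passed by PARP9 (55.0) and DTX3L (34.8) at 3 h, while PARP2 goes from 12.3 to 6.07.

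PARP9 and DTX3L rose by unequal amounts. The ratio of DTX3L to PARP9 counts, in which library size cancels, was 2.01 and 1.65 in unstimulated libraries and 1.20 in both IFNγ libraries. The 4 ratios did not overlap between the groups and the IFNγ pair was nearly equal. On the log2 scale the ratio went from 0.87 ± 0.201 (SD, n = 2) to 0.26 ± 0.00207 (SD, n = 2), a difference of -0.61. A two-sided exact permutation test gave p = 0.333, which is the smallest value that 2 libraries against 2 allow, so this test cannot reach a threshold of 0.05 here. When single libraries were left out the difference ran from -0.75 to -0.46.

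PARP9, DTX3L and PARP14 lie within 202.9 kb of chromosome 3, with PARP15 between them. PARP15 (ENSG00000173200, chr3:122296475-122357894), a macrodomain member of the family outside the 10 chosen, had 7 and 10 counts in unstimulated and 53 and 46 in IFNγ libraries. Its log2 fold change of 2.50 (SE 0.415, edgeR quasi-likelihood adjusted p = 0.00729) was called, on few counts, and DESeq2 gave it no adjusted p-value. Of 10 flanking genes 8 were tested, and none was called higher and 1 lower, HSPBAP1, beside 2.88% and 4.40% of all tested genes. HSPBAP1 lies 229.4 kb from the PARP9 and DTX3L starts and had 189 and 132 counts in unstimulated and 88 and 64 in IFNγ libraries (log2 fold change -1.09, edgeR quasi-likelihood adjusted p = 0.00631). By the adjusted p-value alone MIX23 (-0.64, adjusted p = 0.0379) and WDR5B (-0.83, adjusted p = 0.0406) were lower as well. Over the edgeR and DESeq2 alternatives that kept all libraries, their adjusted p ran from 0.00643 to 0.143 and from 0.00147 to 0.188. MIX23 was at -0.33 (edgeR adjusted p = 0.143) with the GC and length trend removed. KPNA1, at -49.5 kb from the pair, on the far side, had a log2 fold change of -0.04, FAM162A -0.15, SLC49A4 0.39, SEMA5B 0.50 and PDIA5 0.05, and none of these passed the test. At an unadjusted p under 0.05 edgeR had 1 flanking gene higher and 3 lower, and DESeq2 called 0 higher and 1 lower. CSTA and CASR had at most 1 count in any library. Over the 8 tested flanking genes the median was -0.09 on the log2 scale.

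**Figure D4:**
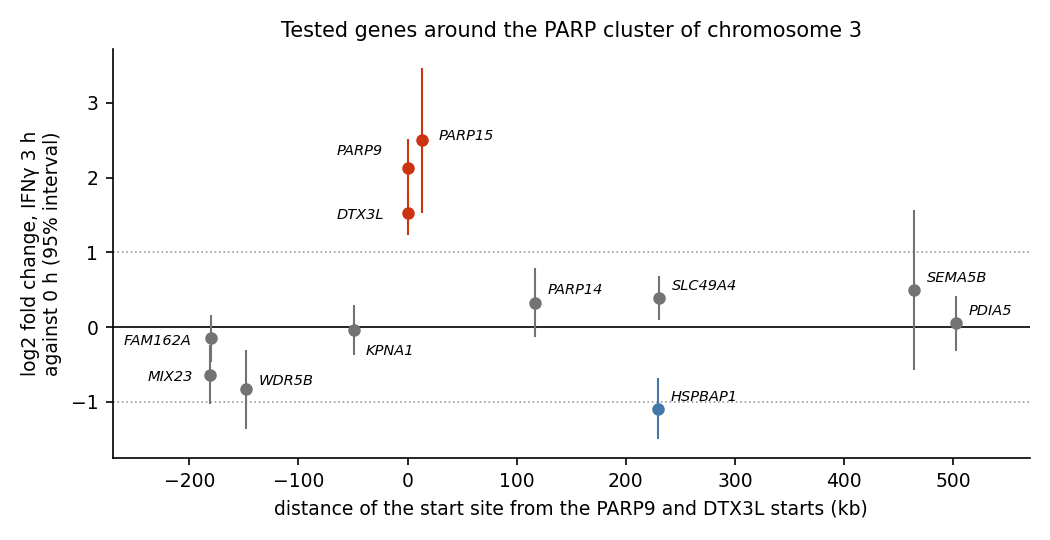
Log2 fold change of IFNγ 3 h against 0 h with its 95% interval, for tested genes of chromosome 3 against the distance in kb of their start site from the PARP9 and DTX3L starts, red for called higher, blue for called lower and grey for not called. The 3 genes called higher start at most 13.2 kb from that point, while PARP14, at 116.4 kb, and the flanking genes on both sides lie between -1.09 and 0.50.

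The genes around PARP10 were described in the same way. Of 8 listed neighbours 7 were tested and 0 were called, beside 2.88% higher and 4.40% lower of all tested genes. All 7 log2 fold changes were positive, beside 7326 of all 14820 tested genes, with a median of 0.32. The GC content of the 7 ran from 61.5% (CYC1) to 66.8% (PLEC). DESeq2 called 0 of the 7 as well, and 4 had an unadjusted p under 0.05 in edgeR. PLEC (0.86, adjusted p = 0.0192), EXOSC4 (0.71, adjusted p = 0.0295) and GRINA (0.44, adjusted p = 0.0259) passed the adjusted p-value of edgeR's quasi-likelihood test alone. PLEC was called higher without unstimulated replicate 1 (1.11, adjusted p = 0.00957) and without IFNγ replicate 2 (1.01, adjusted p = 6.28e-08). SHARPIN was at 0.32, CYC1 at 0.27, GPAA1 at 0.22 and OPLAH at 0.12, beside 0.14 for PARP10, and none of these passed. With the GC and length trend removed the values of GPAA1 and OPLAH turned to -0.032 and -0.11. In that edgeR fit EXOSC4 (0.44, adjusted p = 0.106) and GRINA (0.20, adjusted p = 0.221) no longer passed, while PLEC did (0.78, adjusted p = 0.00328).

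Outside the 10 members, 8 further PARP family genes were tested, with a median log2 fold change of -0.16. Of these 2 were called higher, PARP15 and ZC3HAV1, and 2 lower, TNKS and TNKS2, beside 2.88% and 4.40% of all tested genes. ZC3HAV1, an antiviral protein that binds CpG-rich RNA and lacks catalytic activity, went from 62.7 ± 4.42 CPM (SD, n = 2) to 182 ± 21.1 CPM (SD, n = 2), a log2 fold change of 1.54 (SE 0.134, edgeR quasi-likelihood adjusted p = 0.00115). This is close to the 1.53 of DTX3L. The tankyrases TNKS and TNKS2, which build poly(ADP-ribose) on proteins such as axin, fell. TNKS had 1174 and 686 counts in unstimulated and 498 and 277 in IFNγ libraries, a log2 fold change of -1.28 (adjusted p = 0.00334), and TNKS2 had 877 and 595 against 418 and 304, a log2 fold change of -1.04 (adjusted p = 0.00239). With the GC and length trend removed they were at -0.91 and -0.67, short of the fold change threshold, and TNKS2 also missed it with upper quartile scaling. TIPARP, a target of the aryl hydrocarbon receptor, was at 0.56 (adjusted p = 0.0314) and passed the adjusted p-value alone. PARP6 (-0.20), PARP11 (-0.11) and PARP16 (-0.29) did not pass. The promoter windows of ZC3HAV1 and PARP15 held TTCNNNGAA, at -104 to -96 and -51 to -43, beside 9.38% of all genes with a window. PARP15 has another RefSeq start site, at chr3:122615615 on the plus strand, whose window held no match. No examined window of these further genes held the repeated GAAA, and TNKS, on chromosome 8, was not examined.

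The 3 deltex relatives of DTX3L with a row were tested and 0 were called, from -0.40 for DTX2 to 0.17 for DTX4, with a median log2 fold change of 0.06. None of the 3 had an unadjusted p under 0.05, and DESeq2 called 0 of them. DTX1 was not analysed here.

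A list of 10 genes for the removal and reading of ADP-ribose also holds the DNA glycosylase TDG and HPF1, a cofactor of PARP1 and PARP2. Of these 2 were called higher and 0 lower, beside 2.88% and 4.40% of all tested genes, with a median log2 fold change of 0.00. DESeq2 called 1 higher and 0 lower, and at an unadjusted p under 0.05 edgeR had 3 higher and 3 lower. ADPRS, the hydrolase that removes ADP-ribose from serine, had 297 and 225 counts in unstimulated and 667 and 523 in IFNγ libraries. It went from 30.2 ± 1.84 CPM (SD, n = 2) to 68.1 ± 4.58 CPM (SD, n = 2), a log2 fold change of 1.17 (edgeR quasi-likelihood adjusted p = 0.00235), and stood at 0.96 with the GC and length trend removed. ADPRH, which acts on ADP-ribose bound to arginine, rose from 11 and 9 counts to 37 and 30 (log2 fold change 1.72, adjusted p = 0.0179), a call that was lost without unstimulated replicate 1, IFNγ replicate 1 or IFNγ replicate 2. PARG, which cleaves poly(ADP-ribose) chains, was at -0.76 (adjusted p = 0.0359) and TDG at 0.58 (adjusted p = 0.0353), both past the adjusted p-value alone. MACROD2 had the lowest value, -1.40, with 2 to 12 counts in a library and an adjusted p of 0.124.

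The supply of NAD+ and the repair partners of PARP1 and PARP2 held no called gene by edgeR's quasi-likelihood test or by DESeq2. Of all tested genes edgeR called 2.88% higher and 4.40% lower. At an unadjusted p under 0.05, 2 genes of NAD supply were higher and 1 lower, and 1 repair partner was higher and 3 lower. Of 8 genes of NAD supply, values ran from -0.48 for NMNAT3 to 0.64 for NMNAT1 (adjusted p = 0.0585), with a median log2 fold change of -0.10. Of 12 strand break repair partners, FEN1, the flap endonuclease, passed the adjusted p-value alone (0.61, adjusted p = 0.0464). FEN1 also passed in DESeq2 (adjusted p = 0.0439), but not in edgeR with the GC and length trend removed (0.48, adjusted p = 0.0861). APLF had the lowest value (-1.71, adjusted p = 0.0612) on 3 to 17 counts a library. APLF was called lower with the replicate block (-1.68, adjusted p = 0.0382) and with no filter on low counts (-1.70, adjusted p = 0.0253). Their median was -0.11, and XRCC1 was at -0.12.

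For each called member, the genes with the most similar pattern were taken as those nearest in log2 CPM over the 4 libraries, centred on each gene's mean (Euclidean distance). Near to PARP9 were SERPING1 (distance 0.160, log2 fold change 2.46) and ENSG00000251196 (0.251, 3.35). Those nearest to DTX3L were ZC3HAV1 (distance 0.0421, log2 fold change 1.54), RGS2 (0.0515, 1.53) and IFIT2 (0.0555, 1.67). PARP2 had MKLN1 (distance 0.0289, log2 fold change -0.996), RSF1 (0.0447, -1.01) and LINC00886 (0.0452, -1.05) nearest to it. The log2 CPM here used a prior count of 2, which shrinks differences at low counts more than edgeR's log2 fold changes do. With 4 libraries many genes share such a pattern, and nearness describes these libraries only.

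**Figure D5:**
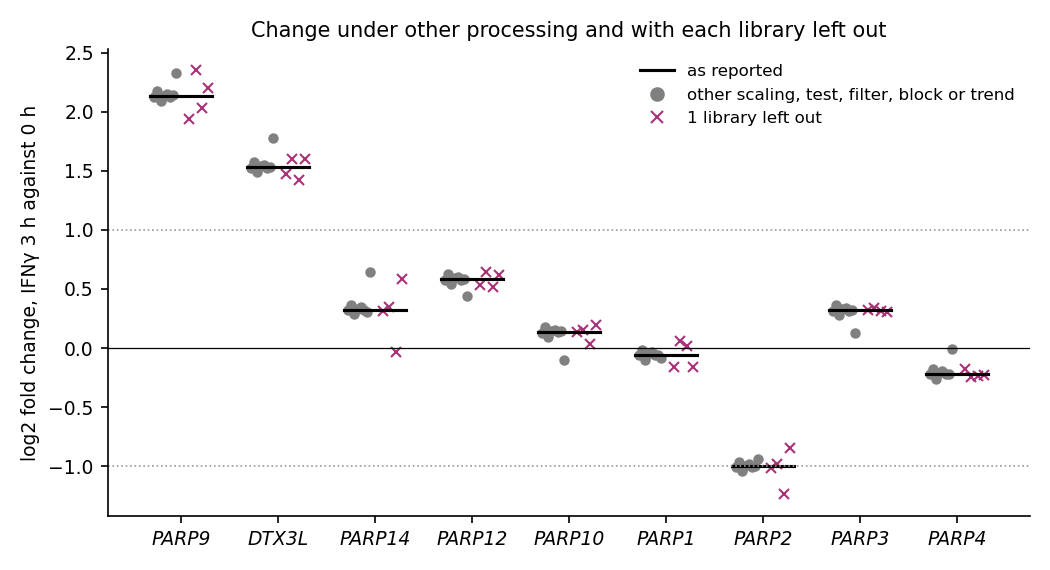
Log2 fold change of IFNγ 3 h against 0 h for the 9 tested members, as reported (black bars), under other scaling, test, filter, block or trend (grey points) and with 1 library left out (purple crosses). PARP9 stays between 1.94 and 2.35 and DTX3L between 1.43 and 1.78, above the dotted fold change threshold in all of these, while PARP2 lies on both sides of it and PARP14 runs from -0.03 to 0.65.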

How the data were processed

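For 4 Caco-2 libraries the authors deposited read counts by Ensembl gene, neither normalized nor pooled. Per the labels, RNA was isolated with the mirVana kit and libraries were made with a TruSeq kit, and the submitters' processing notes name HISAT 0.5.1 and HTSeq 0.6.1p1. The build, the annotation and the handling of strand are not given in the sources used here. Gene positions, transcript lengths and GC content came from GENCODE 44 on GRCh37, and 36212 of 37515 identifiers matched a symbol. The authors' threshold for calls in these cells was used.

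The quasi-likelihood test of edgeR 4.0.16 in R 4.3.3 was run on all genes, with TMM scaling, the default filter and no block. The SE was derived from the F statistic (absolute change over its root). Differences of same-numbered libraries and the search for similar patterns used a prior count of 2. The alternatives were DESeq2 1.42.0, its size factors in edgeR, scaling by upper quartile or by library size, no filter, at least 10 counts in every library, the replicate block, removal of a loess trend (span 0.5) of GC content and length by library, an adjusted p under 0.01, a pseudocount of 0.5 for the ratio, and each library left out.

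The text names the members, every called gene and the highest and lowest gene of each list of related genes, all tested neighbours, and the 3 genes nearest to each called member, of which 1 is not reported here. Marker genes and genes past the adjusted p-value alone are named as well, and of the called IFNγ targets of the label check IRF1 alone, although the rule covers all of them. The members and lists were chosen with earlier results of these data known.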

Additional observations from a re-analysis of the deposited data

How the results depend on the processing

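PARP9 and DTX3L were called higher in every alternative that was run, with log2 fold changes of 1.94 to 2.35 and 1.43 to 1.78. The number of members called lower, 1 as reported, was 0 with upper quartile scaling, with no filter on low counts, with the GC and length trend removed and with an adjusted p under 0.01, and 0 to 1 with each library left out. Members past the adjusted p-value alone numbered 3 to 4, and 3 to 5 with each library left out. Genes of the other PARP, deltex, ADP-ribose, NAD, repair and neighbour lists called higher, 4 as reported, were 2 with DESeq2 and 2 with at least 10 counts in every library, and those called lower, 3 as reported, were 1 with the GC and length trend removed.

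Some log2 fold changes turned sign. With the GC and length trend removed PARP10 was at -0.10, FAM162A at 0.16, GPAA1 at -0.032, KPNA1 at 0.42, OPLAH at -0.11 and PDIA5 at -0.088, and with upper quartile scaling KPNA1 was at 0.0026. With each library left out the values ran from -0.033 to 0.58 for PARP14, -0.16 to 0.062 for PARP1, -0.29 to 0.023 for FAM162A, -0.21 to 0.083 for KPNA1, -0.071 to 0.26 for OPLAH, -0.12 to 0.20 for PDIA5 and -0.22 to 0.89 for SEMA5B. The cause was not tested. Without IFNγ replicate 2 and with no filter edgeR's estimate of the spread was shared wholly between genes (infinite prior degrees of freedom).

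The replicate numbers are shared by the groups, but no label says that they mark a batch or culture. The deviations of same-numbered libraries correlated across genes (r = 0.415). With the replicate block edgeR called 492 genes higher and 896 lower, against 427 and 652. It changed no call of a member, with PARP9 at 2.14, DTX3L at 1.53, PARP2 at -1.002 and the log2 ratio of DTX3L to PARP9 at -0.61, and of the other listed genes APLF alone became called (-1.68, adjusted p = 0.0382), as it was with no filter.

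With 2 libraries a group, precision is limited by replicates, and for PARP8, with at most 3 counts, by depth.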
